A study of Homo sapiens with 4 samples.

Results

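The ribosome footprints of drug-resistant colorectal cancer cells that carried a control plasmid were described here as a baseline landscape. HCT-8 is a human ileocecal colorectal adenocarcinoma line, and the cells were a form of it resistant to 5-fluorouracil (5-FU), a pyrimidine analogue that blocks thymidylate synthesis and enters RNA. The series holds 4 ribosome profiling libraries, and the 2 with the negative control plasmid (NC replicates 1 and 2) were chosen by their titles. The other 2 libraries carry a METTL14 overexpression plasmid and entered no value given here. Both NC cultures were transfected with plasmid, then given cycloheximide at 100 ug/mL, a drug that stalls elongating ribosomes, before a light RNase digestion. The NC group shared drug resistance, transfection and cycloheximide, and no sensitive parental, untransfected or cycloheximide-free cells were analysed here. The sources used here do not say how resistance was derived, whether the cells were 1 clone, or whether the drug was present at harvest. The experiment was done independently in duplicate per the series' design text, and nothing further describes the replicates, so the errors measure the spread between these 2 libraries only.

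A ribosome shields a short stretch of message from RNase, so that a gene's footprint count reflects how much of its message was present and how many ribosomes sat on it. Translation in growing cancer cells is known to be divided very unevenly among genes, with ribosomal proteins, metabolic enzymes, chaperones and the cytoskeleton taking much of it. Colorectal cancer cells keep part of the identity of the intestinal epithelium, set by transcription factors such as CDX2 and HNF4A, while often losing products of mature absorptive and secretory cells. Without an RNA library beside them, the values cannot be read as translational efficiency. A long coding sequence holds more footprints than a short one at the same density, and no coding lengths were held. The values below are therefore shares of all footprints, as CPM (the gene's count over the library total, times 1000000), and a higher CPM of one gene than of another is not a higher translation per message or per codon.

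Over 20323 gene rows, the library totals of the deposited estimated counts were 21846389 (NC replicate 1) and 18707758 (NC replicate 2). A gene was called present with at least 10 counts in both libraries, absent with under 10 in both, and mixed otherwise. Present genes numbered 12085, or 59.5% of the rows, and held 99.9% of the counts in each library. A further 7736 rows were absent, of which 5456 had 0 counts in both libraries, and 502 were mixed. A count of 10 stood for 0.458 CPM in replicate 1 and 0.535 CPM in replicate 2. A count of 0 allowed up to about 3 counts, or 0.137 and 0.160 CPM, as a one-sided 95% limit. Genes just inside the threshold, 66 with a lower count of at least 10 and under 11, had a mean level between 0.496 and 1.93 CPM, and the 50 just outside lay between 0.469 and 1.06 CPM. Means below are of these 2 libraries with their SD (n = 2), and the limit from a count of 0 covers counting error only.

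The starts of 6 of the messages with many footprints are shown as examples, picked after the values were seen. Many messages of the translation machinery begin with a cytosine and an unbroken run of pyrimidines, the 5′ terminal oligopyrimidine (TOP) tract, through which mTOR signalling is known to control their translation. Each sequence below is from RefSeq on GRCh38.p14, written 5′ to 3′ on the gene's strand, and covers 10 bases before and 16 bases from the annotated start. Capitals mark the tract, a C at the start and the T and C bases that follow it without a break, counted as a tract with at least 4 such bases after the C.
EEF1A1: cgtgaacgttCTTTTTCgcaacgggt
EEF2: cgtcagcgttCTCTTCCgccgtcgtc
RPL35: cgcctacttcCTCTTTCCCTCggagc
RPS6: gaagttggccCTCTTTTCCgtggcgc
CALR: ggcggcgtccgtccgtactgcagagc
HSPA5: cggtgaggtcgacgccggccaagaca
EEF1A1 (chr6:73521017-73521042, minus strand) and EEF2 (chr19:3985448-3985473, minus strand) are the elongation factors that deliver aminoacyl-tRNA and move the ribosome along. RPL35 (chr9:124861942-124861967, minus strand) and RPS6 (chr9:19380221-19380246, minus strand) encode proteins of the large and the small ribosomal subunit. The tract was 7 bases long in EEF1A1 and in EEF2, 11 in RPL35 and 9 in RPS6. Not all genes of these kinds have it. It was found at 39 of 51 ribosomal protein starts and at 2 of 5 elongation factor starts. CALR (chr19:12938599-12938624, plus strand) and HSPA5 (chr9:125241328-125241353, minus strand) encode chaperones of the endoplasmic reticulum (ER), and their annotated starts hold no such tract.

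Footprints were concentrated on few genes. The 10 highest genes held 8.16% of the counts in replicate 1 and 8.49% in replicate 2, the 100 highest 26.9% and 27.1%, and the 1000 highest 64.1% and 63.2%. Counted from the top, 466 genes made up 50% of the footprints in replicate 1 and 490 in replicate 2, and 90% was reached with 4274 and 4359 genes. By mean level, 118 genes at 1000 CPM or more held 28.9% of all footprints and 1719 genes between 100 and 1000 CPM held 46.2%. The largest group, 6490 genes between 10 and 100 CPM, held 23.2%. The 3369 genes between 1 and 10 CPM held 1.65%, and 389 present genes under 1 CPM held 0.0303%. The median present gene had 21.3 CPM.

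The 3 genes with most footprints all encode chaperones of the ER lumen. CALR, the calcium-binding lectin chaperone calreticulin, had 13938 and 13803 CPM in NC replicates 1 and 2, a mean of 13871 ± 95.2. HSP90B1, the ER form of HSP90, had 12170 and 13617 CPM, a mean of 12894 ± 1023. HSPA5 (BiP), the ER HSP70 that binds nascent chains and restrains the unfolded protein sensors, had 9355 and 10137 CPM, a mean of 9746 ± 552. Their order was the same in both libraries, and the gap between CALR and HSP90B1 was smaller than the spread of HSP90B1.

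Keratins followed, the intermediate filaments of simple epithelium. KRT8 had 8103 and 8102 CPM, its partner KRT18 had 5545 and 5634 CPM, and KRT19 had 3407 and 3266 CPM. PTMA, a small acidic chromatin protein, stood beside KRT8 with 8248 and 7883 CPM, and the 2 genes changed places between the libraries. FAT1, a giant protocadherin, came next with 6260 and 6792 CPM. Its coding sequence is very long, and the order is not adjusted for length.

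Cytoplasmic actins and glycolytic enzymes filled much of the next places. ACTB had 6325 and 6703 CPM and ACTG1 had 5085 and 5845 CPM. GAPDH had 6620 and 6122 CPM, the pyruvate kinase PKM 4997 and 5344 CPM, and the enolase ENO1 5082 and 5149 CPM. The cytosolic chaperones HSP90AA1 (4853 and 5873 CPM) and HSP90AB1 (4324 and 4886 CPM) were both higher in replicate 2, as was HSP90B1.

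The remaining places among the 25 highest genes went to proteins of varied function. BSG (basigin), a glycoprotein that escorts lactate carriers to the membrane, had 4644 and 4324 CPM. The calcium-binding S100A4 and S100A6 had 4510 and 4337 CPM and 4035 and 4159 CPM. CANX (calnexin), the membrane-bound relative of calreticulin, had 3996 and 4087 CPM, and the disulfide isomerases PDIA3 and P4HB had 3995 and 3834 CPM and 3913 and 3836 CPM. TUBA1B, an alpha tubulin, had 3954 and 3855 CPM, the nucleolar NCL 3279 and 3817 CPM, EEF1A1 3528 and 3027 CPM, and MT-CO1, the catalytic oxidase subunit made inside mitochondria, 2961 and 3493 CPM. The pairs lay close to each other for most of these genes, so that the leading 25 stand clear of the median gene in both libraries while many neighbours in the order overlap.

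**Figure D1:**
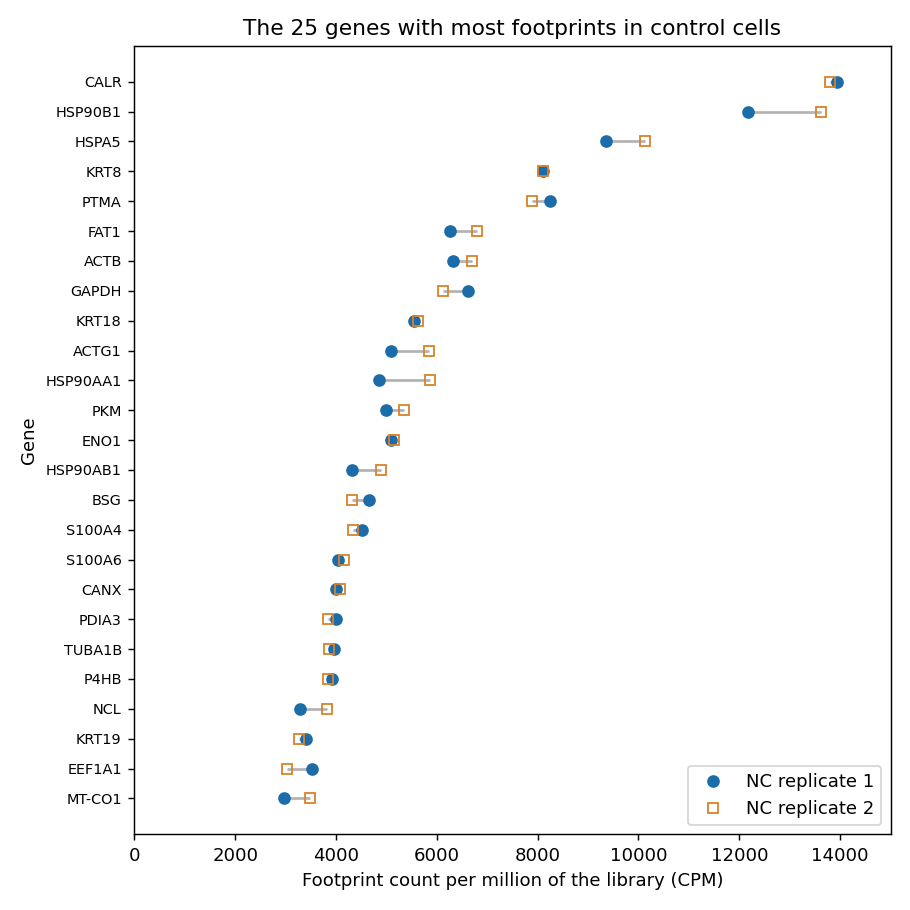
Footprint level (CPM, linear axis) of the 25 genes with the highest mean, 1 row per gene; filled circles are NC replicate 1, open squares NC replicate 2, and a line joins the pair. CALR and HSP90B1 lie at 12170 CPM or more in both libraries, and the pair is widest for HSP90B1 and HSP90AA1.

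Genes were then grouped into 30 classes of 1748 symbols in all, which held 49.7% of the footprints in replicate 1 and 49.0% in replicate 2. The 2 largest classes were ER chaperones with disulfide isomerases and cytosolic ribosomal proteins. The ER class took 6.42% and 6.60% of all footprints, a mean of 6.51% ± 0.127. Cytosolic ribosomal proteins took 6.50% and 5.56%, a mean of 6.03% ± 0.659. Ribosomal proteins were first in replicate 1 and ER chaperones in replicate 2, so the order of the 2 classes was within the replicate spread.

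The 2 classes reached a like share in different ways. All 34 ER genes were present, with a median of 440 CPM, and 3 of them, CALR, HSP90B1 and HSPA5, held 56.0% of the class. Below them stood GANAB, the glucosidase that trims glycans before the lectin chaperones bind (2357 and 2368 CPM), PDIA4 (2110 and 2041 CPM) and the prolyl isomerase PPIB (2090 and 2059 CPM). With the 20 highest genes left out of the total and of the classes, the ER share was 2.36%, in place 5. The share of ribosomal proteins was then 6.92%. Those 20 genes were picked by these same levels. They include CALR, HSP90B1, HSPA5, CANX and PDIA3 but no ribosomal protein, so both shifts follow from the choice.

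Ribosomal protein footprints were spread over many genes. All 79 were present, and the highest, RPL19, held 3.56% of the class with 2255 and 2053 CPM. RPL35 had 2011 and 1748 CPM, RPL7A 1996 and 1620 CPM, and RPS24 1763 and 1789 CPM. The lowest was RPL39, one of the smallest ribosomal proteins, with 129 and 97.3 CPM. Each of these proteins enters the ribosome in a fixed ratio to the others, and their coding sequences are short. Many have near-identical pseudogenes, and how reads that fit several copies were assigned is not given in the sources used here.

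Other parts of the translation machinery took less. Initiation and termination factors held 1.23% and 1.26%, led by the helicase EIF4A1 with 2504 and 2477 CPM and the scaffold subunit EIF3C with 898 and 985 CPM. Elongation factors held 0.936% and 0.850%. EEF2 had 2060 and 1800 CPM and EIF5A, which helps the ribosome past prolines, 1380 and 1479 CPM. The 20 aminoacyl-tRNA synthetases, all present, held 0.363% and 0.360%, led by NARS1 (352 and 349 CPM) and MARS1 (363 and 323 CPM). Nucleolar and ribosome assembly proteins held 0.863% and 0.953%, of which NCL alone made up 39.0%, with NPM1 at 2308 and 2485 CPM and DDX21 next at 233 and 271 CPM.

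The cytoskeleton formed 3 large classes. Actins and actin-binding proteins held 3.46% and 3.53%, with the myosin light chain MYL6 at 2142 and 2015 CPM, the monomer-binding PFN1 at 1870 and 1630 CPM and the severing protein CFL1 at 1674 and 1774 CPM. The membrane linker EZR had 1214 and 1263 CPM, while its paralogue MSN had 3 counts in each library. Tubulins and microtubule motors held 1.77% and 1.76%, with STMN1, which destabilises microtubules, at 1747 and 1840 CPM. Keratins, lamins and plakins held 2.11% in each library, of which KRT8, KRT18 and KRT19 made up 80.7%; only 22 of 65 members of that class were present, against 60.6% of all symbols.

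Nuclear proteins were led by histones and RNA-binding proteins. Histones held 2.76% and 2.48%, with 66 of 94 symbols present. The variant H2AZ1 had 1291 and 1261 CPM, the linker histone H1-2 1084 and 1052 CPM and the core histone H2AC7 1127 and 971 CPM. Replication-dependent histone messages end in a stem-loop and lack a poly(A) tail, and the labels give polyA RNA as the molecule. HnRNPs, SR proteins and the spliceosome held 2.49% and 2.59%, led by HNRNPA2B1 (2157 and 2470 CPM), HNRNPC (1494 and 1553 CPM) and HNRNPA1 (1331 and 1347 CPM). Zinc finger genes were the broadest class, with 369 of 507 symbols present, but held 0.351% and 0.377% of footprints, at a median of 6.39 CPM. The highest of them, ZNF207, a spindle assembly factor, had 84.4 and 107 CPM.

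All 47 genes of DNA replication and mitosis were present and together held 0.723% and 0.765%. MCM7, a subunit of the replicative helicase, had 532 and 541 CPM, the proliferation marker MKI67 480 and 539 CPM, the sliding clamp PCNA 496 and 512 CPM, and TOP2A, which untangles chromosomes, 402 and 425 CPM. Genes tied to the drug and to the study's enzyme, named outside the rule for named genes, were present. TYMS, the thymidylate synthase that 5-FU metabolites inhibit, had 164 and 151 CPM. UMPS, which can convert 5-FU to its ribonucleotide, had 15.4 and 21.3 CPM. DPYD, which degrades 5-FU, lay near the threshold with 19 and 12 counts, or 0.870 and 0.641 CPM. METTL14 had 39.6 and 43.4 CPM and its catalytic partner METTL3 had 47.5 and 48.4 CPM, both above the median present gene.

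Energy metabolism was spread over several classes. Glycolysis held 2.57% and 2.56%, of which GAPDH, PKM and ENO1 made up 64.9%. Aldolase ALDOA had 2031 and 1869 CPM, and TPI1, which interconverts the triose phosphates, had 1369 and 1327 CPM. Nuclear genes of the respiratory chain, all 77 present, held 2.09% and 1.99%, led by ATP5F1B (1417 and 1495 CPM), the catalytic subunit of ATP synthase, and COX6A1 (1333 and 1206 CPM). The 13 genes encoded on the mitochondrial genome held 0.839% and 0.892%, and mitochondrial ribosomal proteins, all 80 present, 0.681% and 0.655%. The 24 genes of the citrate cycle and pyruvate oxidation held 0.384% and 0.397%.

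Within the mitochondrial genome the levels ran over a wide range. MT-CO1 made up 37.1% of the 13 genes. The complex I subunits MT-ND5 and MT-ND4 had 1180 and 1102 CPM and 772 and 776 CPM, while MT-ND1, a subunit of the same complex, had 2.20 and 1.39 CPM from 48 and 26 counts. MT-ATP8 had 222 CPM in replicate 1 and 523 CPM in replicate 2, whereas MT-ATP6, which overlaps it on the same message, had 283 and 277 CPM. MT-ND1 was thus the lowest of the 13 in both libraries, and MT-ATP8 had the widest pair as a ratio.

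Redox enzymes held 1.62% and 1.61%, led by the quinone reductase NQO1 (2611 and 2561 CPM) and the peroxiredoxin PRDX1 (2203 and 2189 CPM). The microsomal transferase MGST1 had 0 counts in both libraries, the 1 member of 43 in the class that was not present. The lysosome and its proton pump held 1.29% and 1.30%, with PSAP, the precursor of the saposins, at 2286 and 2368 CPM. The proteasome held 1.13% and 1.11% with all 40 members present, and PSMB3 led it with 778 and 735 CPM. Cholesterol and fatty acid synthesis held 0.390% and 0.429%, with FASN, the fatty acid synthase, at 377 and 508 CPM.

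Cell surface classes were led by few genes. Integrins, laminins and adhesion genes held 1.85% and 1.84%, with the tetraspanin CD9 at 2052 and 2143 CPM, the proteoglycan AGRN at 1038 and 1011 CPM and the integrin ITGA6 at 902 and 910 CPM. In the class of MHC class I antigen presentation, which held 0.546% and 0.528%, HLA-C had 1801 and 1772 CPM and HLA-B 940 and 908 CPM. B2M, the light chain that pairs with each of these heavy chains, had 24.3 and 25.6 CPM from 531 and 478 counts. B2M is a small protein, and the difference in length from the heavy chains was not measured here. The HLA genes resemble one another closely, so their split is uncertain.

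**Figure D2:**
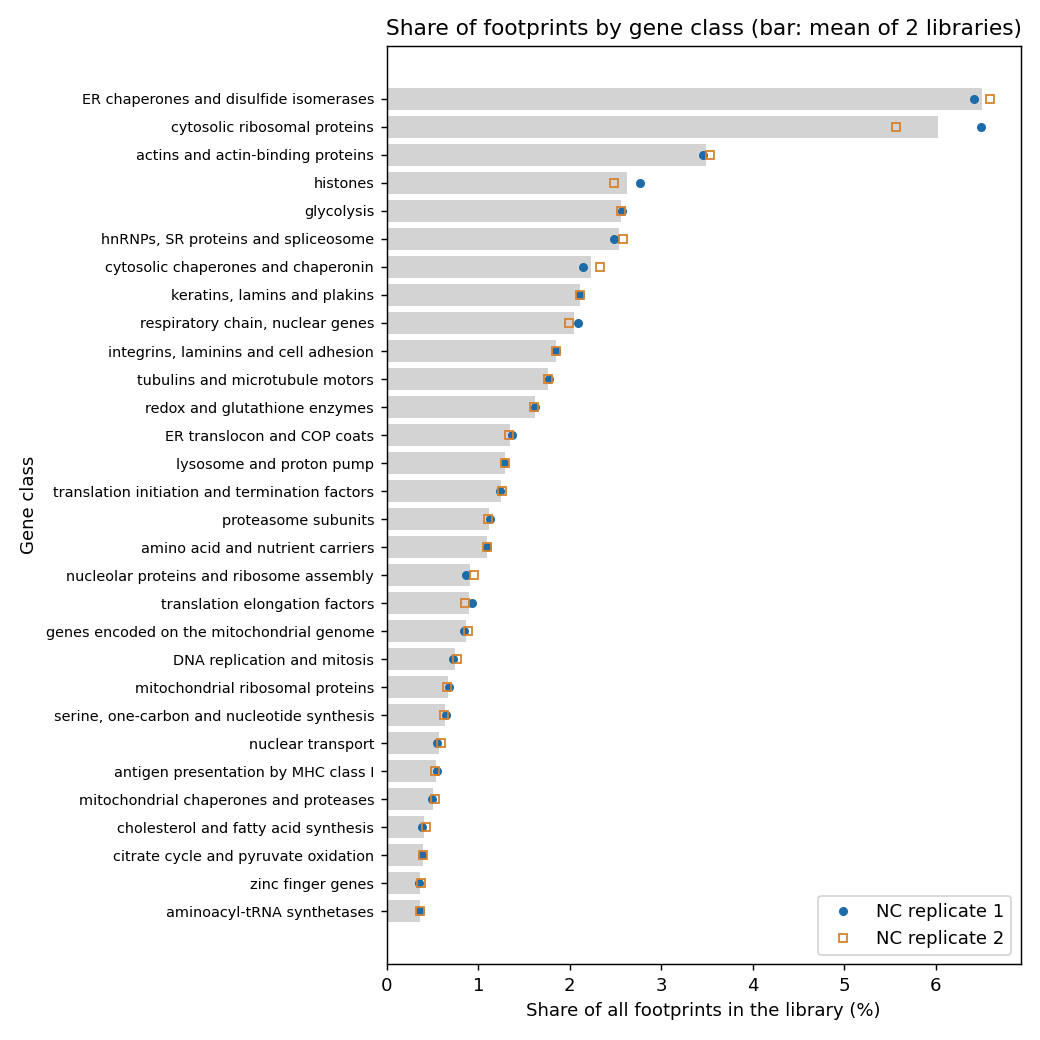
Share of all footprints in the library (percent, linear axis from 0) of 30 gene classes; bars are the mean of 2 NC libraries, filled circles replicate 1 and open squares replicate 2. ER chaperones and cytosolic ribosomal proteins lie near 6%, with the ribosomal proteins at 6.50% and 5.56% showing the widest pair.

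Of the 100 highest genes, 21 were in none of the classes. Beside PTMA, FAT1 and the S100 proteins they included PPIA, a cytosolic prolyl isomerase, the annexin ANXA2, APP and its relative APLP2, the autophagy receptor SQSTM1 and the cytokine MIF.

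The pyrimidine tract was counted at the annotated starts of all genes that matched 1 RefSeq promoter by symbol and had 1 row. The motif searched was a C at the annotated start followed by at least 4 letters C or T, on the gene's strand only. It stood at 1429 of 35116 starts in the promoter table (4.07%) and at 378 of 6635 present genes (5.70%). Among ribosomal proteins it stood at 39 of 51 starts (76.5%), among initiation and termination factors at 9 of 28 (32.1%) and among elongation factors at 2 of 5. None of 22 ER chaperones, 50 histones, 29 actins and actin-binding proteins or 10 glycolysis genes had it. The same held for 24 proteasome subunits and 18 tubulins and microtubule motors. ER translocon and COP coat genes had it at 5 of 29 starts (17.2%) and cytosolic chaperones at 3 of 22 (13.6%). At the 5.70% of all present genes, few matches would fall in classes of these sizes.

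By level, the 10% of present genes with most footprints had the tract at 96 of 664 starts (14.5%), against 3.17% to 6.33% in the other groups of that size. Without ribosomal proteins and elongation factors that leading group had it at 56 of 611 starts (9.17%). A match describes letters at an annotated start, which need not be the start used in these cells. These shares are descriptions and were not tested.

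Lineage genes were read from 25 marker lists. In the 7 lists of intestine and epithelium, 64 of 116 symbols were present (55.2%), of which 42 had at least 10 CPM and 19 at least 100 CPM. In the 18 lists of other tissues, 47 of 238 symbols were present (19.7%), of which 21 had at least 10 CPM and 5 at least 100 CPM. Over all symbols of the files 60.6% were present, so the intestinal and epithelial share was close to the background and the share of other tissues was well under it.

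General epithelial genes were the highest of the lineage lists, with 18 of 22 present at a list median of 180 CPM. EPCAM, the adhesion molecule of epithelial cells, had 1291 and 1257 CPM, and CDH1 (E-cadherin) 832 and 855 CPM. The protease inhibitors SPINT1 and SPINT2 had 445 and 400 CPM and 1126 and 1018 CPM, with their target protease ST14 at 270 and 255 CPM. Of the tight junction genes CLDN7 had 422 and 463 CPM, CLDN4 280 and 314 CPM, and CLDN3 124 CPM in each library. GRHL2, an epithelial transcription factor, and RAB25, an epithelial trafficking GTPase, had 0 counts in both libraries, and OVOL1 was absent as well. ESRP1, an epithelial splicing regulator, had 6.64 and 10.7 CPM.

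Intestinal transcription factors were mostly present, 20 of 26, at low to moderate levels. SOX9, a factor of the crypt base, was highest with 144 and 171 CPM, followed by KLF5 with 111 and 133 CPM. The pioneer factor FOXA1 had 60.4 and 69.8 CPM. CDX2, the master factor of the intestine, had a mean of 22.1 ± 2.92 CPM, HNF4A 23.6 and 21.0 CPM and GATA6 21.3 and 23.3 CPM. These 3 lay within 1 SD of each other and close to the median present gene. The secretory factors ATOH1 and SPDEF, and GATA4, GATA5 and HOXB13, were absent, with SPDEF the highest of them at a mean of 0.221 CPM.

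Products of mature colonocytes and enterocytes were mostly missing. Only 7 of 26 were present, 16 were absent, 10 of these with 0 counts in both libraries, and 3 were mixed. LGALS4, a galectin of the gut lining, had 246 and 232 CPM, the adhesion protein CDH17 117 and 141 CPM, the brush border protein VIL1 65.8 and 75.0 CPM, and the peptidase DPP4 72.6 and 69.3 CPM. The chloride exchanger SLC26A3, the disaccharidase SI, the fatty acid carriers FABP1 and FABP2, the carbonic anhydrases CA1 and CA4, and CEACAM7, MS4A12, GUCA2B and PHGR1 had 0 counts. CA2, a carbonic anhydrase found in many cell types, had 42.9 and 43.9 CPM. TSPAN8 and ALPI were present as well, with 56.1 and 51.5 CPM and 20.9 and 25.5 CPM. The ALPI counts hold fractions, and ALPP, another alkaline phosphatase, had 23.8 and 44.5 CPM, so the split between them is uncertain. KRT20, a keratin of mature colonocytes, was mixed with 0.412 and 0.909 CPM.

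Secretory genes were divided. AGR2, a disulfide isomerase needed for mucin folding, had 585 and 671 CPM and the membrane mucin MUC13 108 and 114 CPM. The trefoil peptide TFF3 had 13.8 and 14.4 CPM, while MUC2, the main mucin of goblet cells, had 0.870 and 0.802 CPM. None of 10 enteroendocrine markers was present, and of 10 Paneth and tuft cell markers 4 were present, 2 mixed and 4 absent. Those present were PTGS1 (7.96 and 8.18 CPM), POU2F3, LYZ and AVIL, while the Paneth defensins DEFA5 and DEFA6 had 0 counts. AGR2 is also made in many tumours and by itself does not mark a goblet cell.

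Genes of the intestinal stem cell list were present in 9 of 12 cases. EPHB2, a receptor of the crypt base, had 176 and 171 CPM, ALCAM 77.8 and 79.0 CPM and MYC 76.4 and 71.6 CPM. The Wnt targets AXIN2 and LGR5 had 49.1 and 40.8 CPM and 11.3 and 11.9 CPM. OLFM4, SMOC2 and PROM1 had 0 counts in both libraries.

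**Figure D3:**
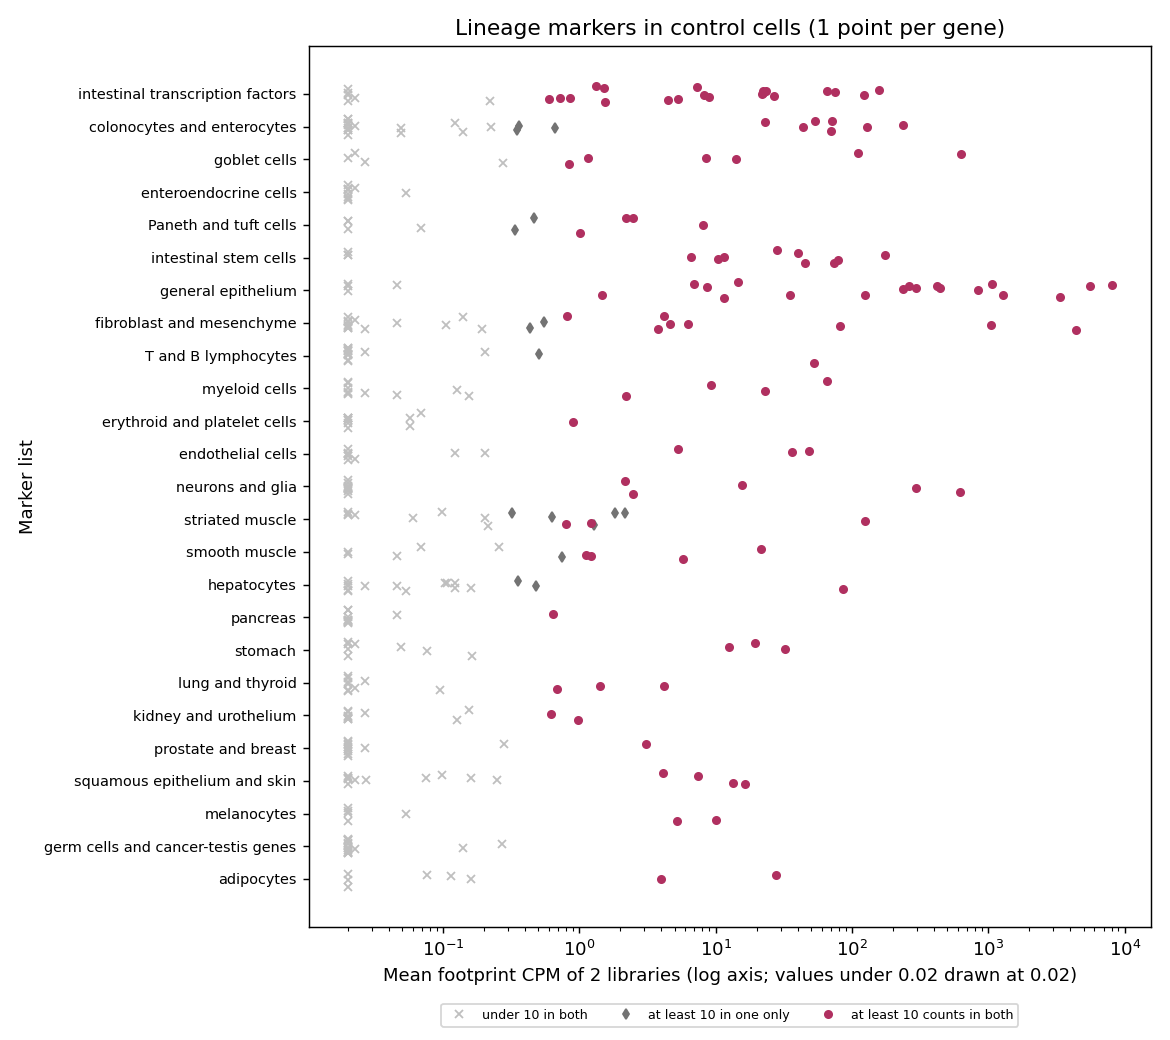
Mean footprint level (CPM, log axis, values under 0.02 drawn at 0.02) of the genes in 25 marker lists, 1 point per gene; filled circles are genes with at least 10 counts in both NC libraries, diamonds those with at least 10 in 1 library only, and crosses those under 10 in both. General epithelium reaches furthest to the right, and no germ cell or enteroendocrine gene is a filled circle.

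Fewer marker genes of other tissues were present, and the lists differed in how many of their members had no counts. Of 15 lymphocyte genes LCK, a Src-family kinase, was the 1 present, with 49.2 and 55.4 CPM, and PTPRC, CD3D, CD3E, CD4 and MS4A1 had 0 counts. Of 14 myeloid genes 4 were present, led by the lysosomal CD68 (62.8 and 68.8 CPM) and the integrin ITGAX (21.6 and 24.2 CPM), while AIF1, MPO and TYROBP had 0 counts. Of 16 hepatocyte genes SERPINA1, a protease inhibitor, was the 1 present, with 79.7 and 91.5 CPM. None of 16 germ cell and cancer-testis genes was present, and 13 of them had 0 counts.

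Mesenchymal genes were present in 8 of 24 cases. Apart from S100A4, COL6A1 stood out with 1040 and 1068 CPM, a collagen chain whose partner COL6A3 had 0.879 and 0.748 CPM. VIM had 85.4 and 77.7 CPM, ZEB1 3.11 and 4.44 CPM and SNAI1 7.19 and 5.35 CPM. ZEB2, TWIST1, TWIST2, SNAI2, PDGFRA and FAP had 0 counts, and CDH2 (N-cadherin) was absent.

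Single genes of distant tissues also had many footprints. TUBB3, a beta tubulin of neurons that many tumours express, had 646 and 596 CPM over its 2 rows. GFAP, the filament of astrocytes, had 321 and 266 CPM, a mean of 294 ± 39.3, whereas 11 of 16 neuronal and glial genes had 0 counts, among them NEFL, SNAP25, S100B and SOX10. TTN, the giant muscle protein, had 107 and 141 CPM. Of the 16 striated muscle genes 3 were present, TTN with DES (1.51 and 0.918 CPM) and TNNI3 (0.732 and 0.855 CPM), 5 were mixed and 8 absent, among them MYOD1 and MYOG with 0 counts. Of 11 stomach genes 3 were present and 8 absent, of which 4 had 0 counts in both libraries. The gastric mucin MUC5AC had 33.9 and 30.3 CPM, and the trefoil peptides TFF1 and TFF2 had 21.6 and 17.6 CPM and 13.8 and 11.2 CPM. These values were of like size in both libraries, and the identity of the reads behind them was not examined here.

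HOX genes, which record position along the body axis, were read from all 4 clusters. In the HOXB cluster 7 of 10 genes were present, and the levels were highest at HOXB9 (106 and 101 CPM), HOXB8 (53.1 and 60.3 CPM), HOXB7 (37.3 and 37.9 CPM) and HOXB6 (33.4 and 30.9 CPM). The neighbours HOXB5 and HOXB3 had 4.82 and 4.96 CPM and 8.93 and 8.07 CPM, and HOXB13, at the far end, had 0 counts. In the HOXA cluster 6 of 11 were present, with HOXA10 highest at 3.43 and 5.00 CPM, and in the HOXC cluster 6 of 9, with HOXC11 highest at 2.43 and 4.06 CPM. None of 9 HOXD genes was present. Over all symbols of the files 60.6% were present. The shares of HOXA (54.5%), HOXB (70%) and HOXC (66.7%) were near that value.

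**Figure D4:**
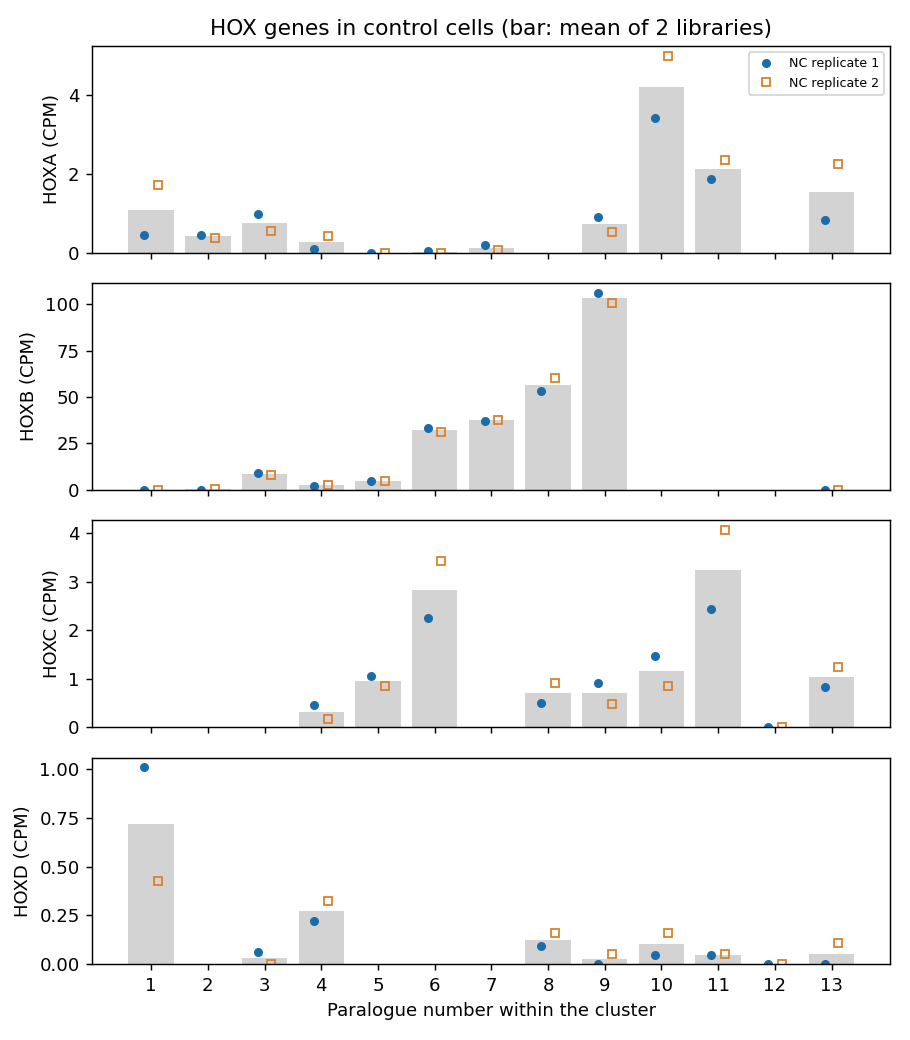
Footprint level (CPM, linear axis with its own range in each panel) of the HOX genes by paralogue number, 1 panel per cluster; bars are the mean of 2 NC libraries, filled circles replicate 1 and open squares replicate 2. HOXB6 to HOXB9 lie between 30.9 and 106 CPM, and the highest value in the other clusters is 5.00 CPM (HOXA10).

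Gene families showed which member carried the footprints. In several metabolic families 1 member took most of them. ENO1 held 97.8% and 97.9% of enolase footprints, ALDOA 95.3% and 94.1% of aldolase, and CKB 99.9% and 99.8% of creatine kinase footprints, with CKB at 633 and 532 CPM. HK1 held 68.7% and 67.6% of hexokinase footprints and HK2 31.2% and 32.3%. SLC2A1 held 67.7% and 68.6% of glucose transporter footprints, with SLC2A3 at 16.8% and 18.4%, and the fructose carrier SLC2A5 had 0 counts.

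Lactate dehydrogenase was shared, with LDHB at 62.9% and 62.6% and LDHA at 37.1% and 37.4%, or 1568 and 1616 CPM against 926 and 965 CPM. Among classical cadherins CDH1 held 66.9% and 66.7%, CDH3 22.2% and 21.0%, and most of the rest was CDH17. The integrin chains ITGB1 and ITGB4 were even, at 614 CPM in both libraries and at 589 and 627 CPM. The family members named here that differ in coding length cannot be ranked by density from these values.

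Growth signalling families ranged from an even split to 1 leading member. EGFR, ERBB3 and ERBB2 had 155 and 172 CPM, 156 and 167 CPM and 131 and 121 CPM, so that EGFR and ERBB3 overlapped, and ERBB4 had 0 counts. CCND1, a cyclin of the G1 phase, held 92.1% and 92.7% of D cyclin footprints with 357 and 388 CPM, CCND3 had 30.5 and 30.7 CPM, and CCND2 had 0 counts. MYC took 98.4% and 97.0% of its family, and MYCN had 0 counts.

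Close paralogues need care, since how shared reads were divided is not given. EEF1A2, the form of neurons and muscle, held 19.6% and 21.9% of elongation factor 1 alpha footprints, with 862 and 846 CPM beside 3528 and 3027 CPM for EEF1A1. ACTB held 55.4% and 53.4% of actin footprints and ACTG1 44.5% and 46.6%. TUBB held 49.2% and 50.5% of beta tubulin footprints and TUBB4B 31.6% and 31.4%. The splits differed between the libraries by at most a few percentage points.

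Agreement between the NC libraries sets the error behind each level. Across the log2 CPM of 12085 present genes the Pearson correlation was 0.990; these are genes, not independent replicates. A chi-square comparison of the 2 sets of counts gave 13.3 per degree of freedom, more than sampling noise in whole counts. The counts are estimates that hold fractions, and this value cannot tell 2 separate cultures from 1 culture prepared in 2 libraries. The SD of the log2 difference was 0.33 over all present genes. It was 0.55 for genes under 1 CPM, 0.48 from 1 to 10 CPM, 0.23 from 10 to 100 CPM, 0.17 from 100 to 1000 CPM and 0.15 above. Past 2-fold lay 214 genes (1.77%), and among 8327 genes at 10 CPM or more 14 (0.168%).

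The widest pairs were often gene models that overlap another. The read-through model MICOS10-NBL1 had 70.8 and 9.43 CPM, but summed with MICOS10 and NBL1 it gave 309 and 287 CPM. PTCD1 had 25.1 and 5.36 CPM and the read-through ATP5MF-PTCD1 8.80 and 30.9 CPM, and together they had 33.9 and 36.3 CPM. One of 2 rows of RAD50 had 21.8 and 5.26 CPM, while both rows together had 80.5 and 109 CPM. The summed values lay closer together than the single rows in each of these cases.

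Other wide pairs included the read-through model FMC1-LUC7L2 (62.3 and 126 CPM). Some were rows that share their symbol with another row, such as GATC (18.7 and 8.28 CPM) and TM9SF1 (31.3 and 61.5 CPM). The examples that follow were genes of varied function with 1 row each. EGR1, an immediate early transcription factor, had 9.34 and 25.1 CPM. NUPR1, a stress-induced nuclear protein, had 45.8 and 22.2 CPM, RHOB, a GTPase with a short-lived message, 53.5 and 28.9 CPM, and MAT2A, the enzyme that makes S-adenosylmethionine, 80.3 and 42.4 CPM. ALPP, a placental alkaline phosphatase, had 23.8 and 44.5 CPM, and MPP4, a scaffold protein known from the retina, 12.6 and 35.6 CPM. With 1 library on each side, these differences have no test.

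Whole classes also shifted between the libraries. Of all present genes 43.7% were higher in replicate 1, with a median log2 difference of -0.04. Of 79 ribosomal protein genes 76 were higher in replicate 1, with a median of 0.23. Of 67 present histone rows 58 were, with a median of 0.17. In the opposite direction, 4 of 32 nuclear transport genes were higher in replicate 1 (median -0.17), and 10 of 40 nucleolar genes (median -0.08). With TMM and RLE scaling 5 of 32 nuclear transport genes were higher in replicate 1, and 16 and 15 of 40 nucleolar genes.

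Genes with a pyrimidine tract at the start were higher in replicate 1 in 203 of 378 cases (53.7%), against 2710 of 6257 genes without one (43.3%). Without ribosomal proteins and elongation factors it was 164 of 337 (48.7%). TMM and RLE scaling moved the share of all present genes higher in replicate 1 to 6072 and 6040 of 12085, and with either 79 of 79 ribosomal protein genes and 60 of 67 histone rows were higher there. The replicate, any preparation batch it stands for and the state of the cells cannot be told apart with 1 library each.

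**Figure D5:**
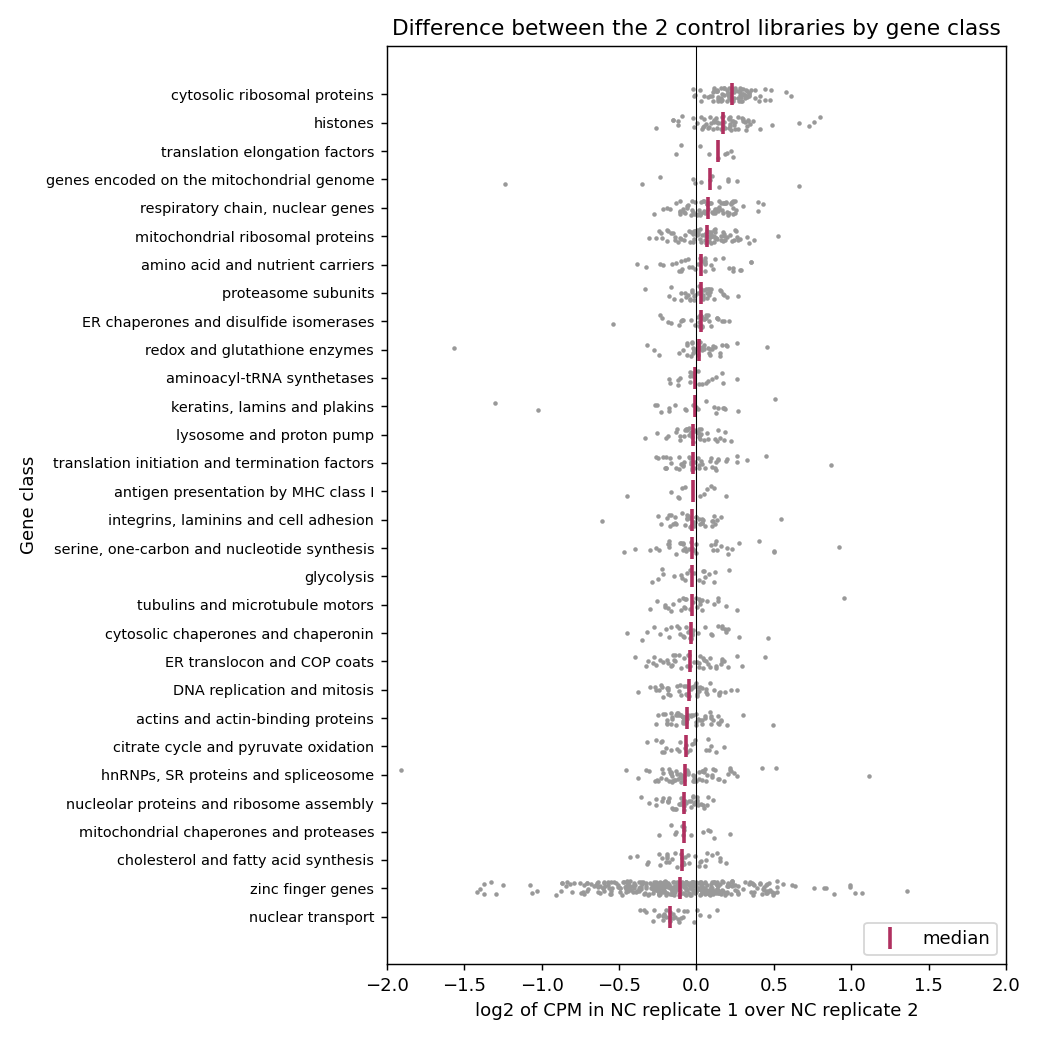
Log2 ratio of CPM in NC replicate 1 over NC replicate 2 for the present members of 30 gene classes, 1 grey point per gene, with the class median as a vertical bar and 0 as a line. Cytosolic ribosomal proteins (median 0.23) and histones (median 0.17) lie to the right, and nuclear transport genes (median -0.17) to the left.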

How the data were processed

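Ribosome footprints were sequenced from 2 control-plasmid cultures, per the labels. The authors deposited an estimated count per Ensembl gene and library, per the file headers. A fraction was held by 14.3% and 14.1% of the values, as in RSEM's expected counts. Tools listed, without versions or roles, in the submitters' processing notes were RSEM, StringTie, HISAT2, Bowtie2 and fastp, with the build hg18. The sources used here give neither the handling of reads that fit several genes nor strand, rRNA removal or read lengths.

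Counts were used unrounded and divided by the library total to give CPM. Rows of 1 symbol were summed for lists; 963 rows shared 475 symbols, and 169 rows without a symbol held 0.0545% and 0.0504% of the counts. A gene listed in more than 1 class counted in the first. The steps were tested on simulated data drawn with counting noise only. The 2 NC libraries differ by more than that, so the simulation does not cover the replicate spread. Python 3.11.15 (pandas 2.3.3) was used, and R 4.3.3 with edgeR 4.0.16 and DESeq2 1.42.0 gave TMM and RLE scaling factors only. With 1 group there was no test between groups.

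The classes and lists were chosen with earlier results of these data known, and the families defined by description and the sequences shown were chosen after the values were seen. The text names the 25 highest genes, leading and lowest members of each list, and the 10 widest pairs on each side at 10 CPM or more, in part by example; a few genes under it are not reported here. Footprints per codon could not be computed, since no coding lengths were held, so CPM replaced them in that rule.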

Additional observations from a re-analysis of the deposited data

How the results depend on the processing

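Changing the count minimum, rounding, or thinning both libraries to 1 total kept the number of present genes between 9693 (at least 100 counts) and 12875 (at least 3 counts), within 1.5 times of 12085. Class shares moved by more than the replicate SD in these cases. Without the 20 highest genes ER chaperones held 2.36%, ribosomal proteins 6.92%, actins 2.63%, histones 3.01%, glycolysis 1.03%, hnRNPs and spliceosome 2.91%, cytosolic chaperones 1.42% and keratins 0.852%. Those 20 genes were picked by these same levels, so classes that hold some of them had to fall. Classes that hold none of them rose through the smaller total. With rows that share a symbol left out, ER chaperones held 6.66%, actins 3.59%, glycolysis 2.48%, hnRNPs and spliceosome 2.45% and keratins 2.17%. Without the mitochondrially encoded genes glycolysis held 2.59% and keratins 2.13%. The share of the 100 highest genes was 26.9% to 27.1% when either replicate was left out. A minimum of 1 CPM in place of counts gave 60 of 116 intestinal and epithelial symbols and 43 of 238 of other tissues. TMM and RLE scaling gave 209 genes past 2-fold in place of 214. The means of 24 of the 25 highest genes stayed within 1 SD, and KRT8, with an SD of 0.416 CPM, did not. The factors lay on opposite sides of 1 (TMM 0.987 and 1.01 in NC replicates 1 and 2, RLE 0.988 and 1.01). They offset each other in a mean of 2 libraries, so the means could hardly move and this is no check on them. The planned ranking of the 100 highest genes by footprints per codon was not run, since no coding lengths were held. No paired analysis was possible because only 1 group was analysed. Genes below about 1 CPM rest on few counts, and a level there was not distinguishable from neighbouring levels at this depth.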

Other observations

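Families defined by the descriptions in the files differed widely in how many members were present, beside 59.5% of all rows. None of 392 olfactory receptors, 93 keratin-associated proteins, 44 defensins, 24 taste receptors and 288 T cell receptor and immunoglobulin segments was present, and 366 of the olfactory receptors had 0 counts in both libraries. Present members were few among interleukins (5 of 37, led by the alarmin IL33 at 62.8 CPM), chemokine ligands (7 of 40, led by CXCL16 at 42.9 CPM), interferons (4 of 21) and collagens (13 of 44). Among potassium channels 37 of 120 were present, led by KCNK1 at 98.5 CPM. Solute carriers lay near the share of all rows with 220 of 384 (57.3%), and zinc finger proteins had 372 of 515 (72.2%). At the other end stood ubiquitin-conjugating enzymes with 31 of 35, proteasome subunits with 48 of 50 and mitochondrial ribosomal proteins with 79 of 79.

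A few genes had at least 10 counts in 1 library and 0 in the other, 39 in replicate 1 and 26 in replicate 2. Many were read-through models or second rows of a symbol, such as a row of RDH11 with 810 counts in replicate 1 and a row of DNAJB11 with 582 counts in replicate 2. Of the striated muscle genes with at least 10 counts in replicate 1, 4 had nearly none in replicate 2. MYH6 had 3.65 CPM from 79.8 counts and MYH7 2.56 CPM from 56.0 counts, each with 0 counts in replicate 2, ACTC1 had 4.24 and 0.0652 CPM, and TNNT2 had 0.641 CPM and 0 counts. The cardiac troponin TNNI3 had 16 counts in each library, and TTN and DES were present in both. The identity of these reads was not examined.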
